A study of Mus musculus with 9 samples.

Results

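Lysosomal sphingolipid-degrading enzymes and their activator proteins were followed at the RNA level in Neuro-2a cells (N2a, a mouse neuroblastoma line) after knockdown of Arf1, a small GTPase that recruits coat proteins to Golgi membranes. The 8 genes were taken by their name in the deposited expression table: Hexa, Glb1, Gla, Galc, Asah1, Smpd1, Psap and Gm2a, out of 21899 genes. All 8 were among the 12448 genes with enough reads to be tested. Each of 9 libraries came from cells carrying a short hairpin RNA. In the control group (shlucif) the hairpin was directed at luciferase, and in the groups shArf1-1 and shArf1-2 it was directed at Arf1, with 3 libraries per group. The hairpins were carried by pLKO.1 with a puromycin marker, the cells grew in DMEM with serum, and the sample labels give no treatment, no time after infection and no clone for any group. The labels do not say whether the 3 libraries of a group came from separate cultures. The p-values below rest on the spread between libraries within groups, estimated over all 9 libraries and partly shared across genes. They may not cover the spread between cultures. The series text names the role of Arf1 in lipid metabolism as the question, and the comparison here asks how the RNA of these genes stood in control and Arf1-deficient cells.

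Sphingolipids such as gangliosides, globosides, sulfatides and sphingomyelin reach the lysosome by endocytosis and are taken apart there in order, sugar by sugar and then down to ceramide and sphingosine. Soluble acid hydrolases do the cutting, and small lipid-binding activator proteins lift the lipid out of the membrane so that the hydrolase can reach it. Inherited loss of a single step leads to storage of its substrate, often with disease of the nervous system, where gangliosides are abundant.

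The knocked-down gene was read first. The hairpins are shown because they define the groups. Each has a 21-base target inside the coding sequence of Arf1, on the minus strand of chromosome 11 in GRCm38. The target of shArf1-1 lies in exon 3 at chr11:59213222-59213242 and that of shArf1-2 in exon 2 at chr11:59213386-59213406, and both are present in the 2 annotated Arf1 transcripts. The sequences are written 5′ to 3′ as in the messenger RNA.
shArf1-1: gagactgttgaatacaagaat
shArf1-2: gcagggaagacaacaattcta
Arf1 stood at 328, 316 and 328 FPKM (read counts scaled to gene length and to the library's total count) in the shlucif libraries. It stood at 130, 128 and 127 FPKM with shArf1-1 and at 166, 157 and 171 FPKM with shArf1-2. Every Arf1-deficient library was below every control library, which fits the labels. By the quasi-likelihood test of edgeR, adjusted over all tested genes after Benjamini and Hochberg, Arf1 was at 38.1% of control with shArf1-1 (log2 fold change -1.39, SE 0.05, adjusted p = 1.39e-22) and at 48.3% with shArf1-2 (-1.05, SE 0.05, adjusted p = 4.2e-19).

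The libraries held between 11182479 and 15594615 counts, and the 10 most counted genes took 4.11 to 6.02% of a library. The neuroblast label was met in all 9 libraries: of 20 neuronal and sympathetic neuroblast markers, 15 were above 1 FPKM in every library, Tubb3, Chgb, Uchl1 and Phox2a among the highest, whereas Nefm was at 0 throughout. That list summed to 1210 to 1224 FPKM in shlucif, to 1999 to 2160 FPKM with shArf1-1 and to 1859 to 1948 FPKM with shArf1-2. Of its 17 tested genes 11 rose and 2 fell with each hairpin. Among all tested genes 33.1% were called higher and 34.4% lower with shArf1-1, and 30.9% and 32.6% with shArf1-2. Dbh (2.20 and 1.42), Gata3 (1.72 and 1.33) and Chgb (1.59 and 1.12) were among the genes that rose with both hairpins (log2 fold changes). The shlucif libraries also held reads of macrophage and microglia markers. The 25 genes of that list summed to 215 to 258 FPKM in the 3 shlucif libraries (4849 to 5885 counts) and to 1.04 to 1.60 FPKM in the 6 Arf1-deficient libraries (26 to 55 counts). Of the 22 tested, 21 fell with each hairpin, and Mrc1, which was called higher with shArf1-2, was the exception at 0.08 FPKM in control and 0.14 and 0.21 FPKM in the Arf1-deficient groups. Cd68, Lyz2 and Ctss averaged 55.3, 63.6 and 32.2 FPKM in control, where Trem2, Spi1 and Cybb averaged 4.05, 3.99 and 1.66 FPKM. The following 9 markers had no count in any Arf1-deficient library: Itgam, Aif1, C1qa, C1qb, C1qc, Spi1, Cx3cr1, Cybb and Ctss. Aif1, C1qa and Cx3cr1 were nearly absent in control as well, with at most 5, 1 and 2 counts in a library. They were not tested. Of 7 fibroblast markers 4 were tested, and Col1a1 and Pdgfrb fell with both hairpins, from 0.86 and 5.22 FPKM in control. Dcn (0.23 and 0.63) and Pdgfra (-0.15 and -0.36) were not called with either hairpin (log2 fold changes). Col1a2, Col3a1 and Lum were near 0 in every group and were not tested. Lysosomal hydrolases are also made by macrophages, and all 3 control libraries carried these markers, so none could be set aside. How much of any difference from control below moved with the markers was not tested, and in bulk RNA fewer cells of a type and less RNA per cell cannot be told apart. The shArf1-2 against shArf1-1 contrast sets no control library on either side, but its gene filter, scaling and spread came from all 9 libraries. The macrophage list was near 0 on both sides of that contrast.

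**Figure D1:**
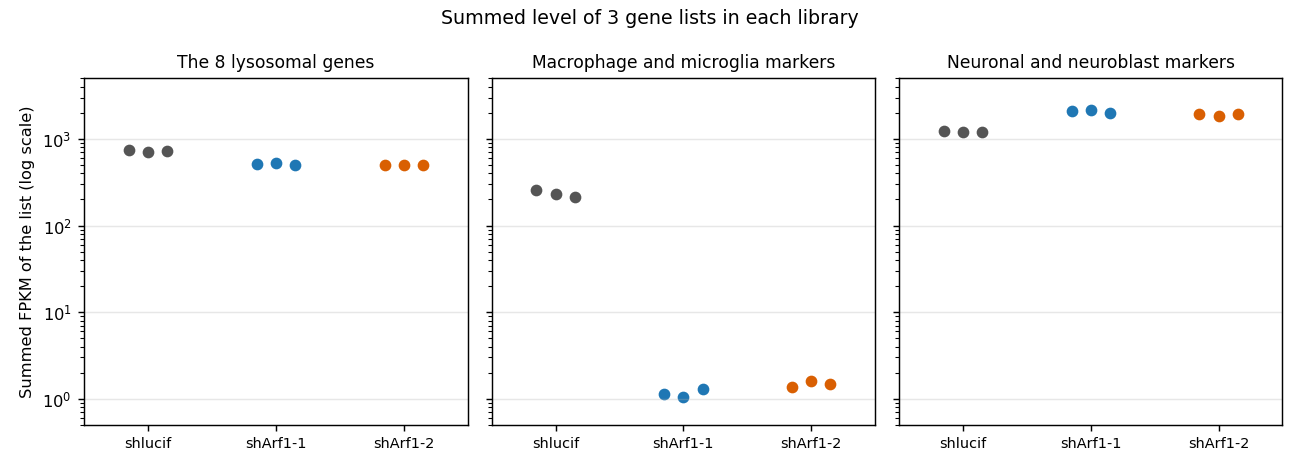
Summed FPKM (log scale) of the 8 lysosomal sphingolipid-degrading genes, of 25 macrophage and microglia markers and of 20 neuronal and neuroblast markers, with 1 point per library and 3 libraries in each hairpin group. The macrophage list lies at 215 to 258 FPKM in shlucif and at 1.04 to 1.60 FPKM in the Arf1-deficient libraries, while the 8 genes go from 713 to 753 FPKM in shlucif to 495 to 521 FPKM with shArf1-1 and 497 to 498 FPKM with shArf1-2.

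In Arf1-deficient N2a cells 6 of the 8 genes fell with both hairpins: Hexa, Glb1, Gla, Asah1, Psap and Gm2a. Galc rose with shArf1-1, and Smpd1 fell with shArf1-2, a call that was lost without shlucif replicate 1 (adjusted p = 0.2) and without shArf1-2 replicate 2 (adjusted p = 0.101). With shArf1-1, 6 of the 8 were called lower and 1 higher at an adjusted p under 0.05, where 34.4% of all tested genes were called lower and 33.1% higher. With shArf1-2, 7 were called lower and none higher, where 32.6% of all tested genes were called lower and 30.9% higher, and Galc was the gene that was not called. The median log2 fold change of the 8 genes was -0.63 with shArf1-1 and -0.64 with shArf1-2, against a median of -0.001 and 0.001 over all tested genes. For the same 6 genes all 6 Arf1-deficient libraries lay below all 3 control libraries in FPKM, a pattern held by 26.7% of all tested genes. Changes of this kind were thus common in these libraries, and the 2 comparisons share their control libraries. The fitted decreases of the 6 genes ran from 1.23-fold for Glb1 with shArf1-2 to 2.14-fold for Asah1 with shArf1-2. When a change had to exceed 1.5-fold, 4 of the 8 genes were called lower with shArf1-1 (Hexa, Gla, Asah1 and Gm2a), where 13.2% of all tested genes were, and 3 with shArf1-2 (Gla, Asah1 and Gm2a), where 10.6% were.

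**Figure D2:**
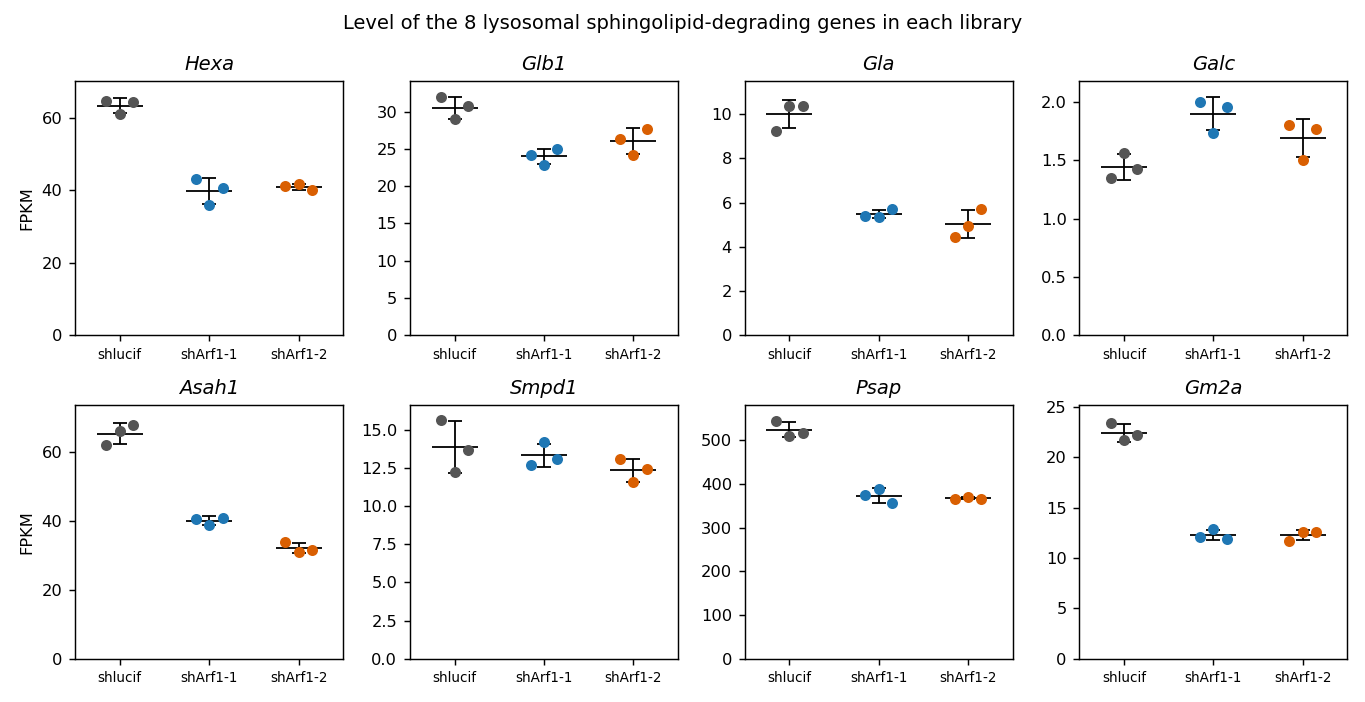
FPKM of the 8 genes in each library, with the mean and SD of the 3 libraries of a group in black and the vertical axis starting at 0. Hexa, Glb1, Gla, Asah1, Psap and Gm2a lie lower in all 6 Arf1-deficient libraries than in the 3 shlucif libraries, Smpd1 overlaps between groups, and Galc lies highest with shArf1-1.

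Psap and Gm2a encode the activators. Psap encodes prosaposin, which is cut in the lysosome into saposins A to D, the helpers of several sphingolipid hydrolases. The gene lies at chr10:60277627-60302597 on the plus strand of GRCm38 and was by far the most abundant of the 8, taking 71.7% ± 0.622 (SD, n = 3) of their summed FPKM in control. Psap stood at 545, 511 and 518 FPKM in the shlucif libraries, at 376, 390 and 356 FPKM with shArf1-1 and at 366, 370 and 366 FPKM with shArf1-2. The Arf1-deficient groups overlapped each other and lay wholly below control. In the edgeR test Psap fell by 0.54 on the log2 scale with shArf1-1 (SE 0.05, adjusted p = 9.35e-12) and by 0.59 with shArf1-2 (SE 0.05, adjusted p = 1.72e-12). Between the hairpins the difference was -0.04, with a 95% interval from -0.14 to 0.06 (adjusted p = 0.627).

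Gm2a encodes the GM2 activator, which presents ganglioside GM2 to hexosaminidase A, and it lies at chr11:55098115-55113029 on the plus strand. Its levels were 23.4, 21.7 and 22.2 FPKM in control, 12.1, 12.9 and 11.9 FPKM with shArf1-1 and 11.7, 12.6 and 12.6 FPKM with shArf1-2. The control libraries stood clear above the rest, and both Arf1-deficient groups averaged 12.3 FPKM. Gm2a fell by 0.93 on the log2 scale with shArf1-1 (SE 0.07, adjusted p = 5.16e-14, edgeR) and by 0.94 with shArf1-2 (SE 0.07, adjusted p = 3.37e-14). The difference between the hairpins was -0.02, with a 95% interval from -0.16 to 0.13.

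Hexa and Glb1 encode the enzymes at the outer end of ganglioside breakdown. Hexa encodes the alpha subunit of hexosaminidase A, which removes the terminal N-acetylgalactosamine of GM2 and whose loss causes Tay-Sachs disease. The gene lies at chr9:59539540-59565109 on the plus strand, and 255 of its exonic bases overlap exons of Tmem202 on the other strand, a gene with at most 5 counts in any library. Hexa stood at 64.8, 61.1 and 64.4 FPKM in control, at 43.1, 36.0 and 40.7 FPKM with shArf1-1 and at 41.2, 41.7 and 40.0 FPKM with shArf1-2. The Arf1-deficient libraries overlapped each other and none reached control. Hexa fell by 0.72 with shArf1-1 (log2 scale, SE 0.07, adjusted p = 6.66e-12, edgeR) and by 0.70 with shArf1-2 (SE 0.07, adjusted p = 1.31e-11). Its difference between the hairpins was 0.02, with a 95% interval from -0.12 to 0.15.

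Glb1 encodes acid beta-galactosidase, which cleaves galactose from ganglioside GM1. It lies at chr9:114401076-114474898 on the plus strand and shares 165 exonic bases on the same strand with Tmppe, which had at most 80 counts in a library. Glb1 stood at 31.9, 28.9 and 30.7 FPKM in control, at 24.2, 22.9 and 24.9 FPKM with shArf1-1 and at 26.3, 24.2 and 27.6 FPKM with shArf1-2. The lowest control library was above the highest Arf1-deficient one by a small margin, 28.9 against 27.6 FPKM. The decreases were the smallest of the 6 genes lower with both hairpins, 0.40 with shArf1-1 (log2 scale, SE 0.07, adjusted p = 4.03e-06, edgeR) and 0.30 with shArf1-2 (SE 0.07, adjusted p = 0.000228), and neither was called when a change had to exceed 1.5-fold.

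Gla and Galc encode galactosidases of other branches. Gla encodes alpha-galactosidase A, the globotriaosylceramide hydrolase lost in Fabry disease, at chrX:134588149-134601125 on the minus strand. Gla stood at 9.26, 10.4 and 10.4 FPKM in control, at 5.38, 5.37 and 5.70 FPKM with shArf1-1 and at 4.45, 4.94 and 5.71 FPKM with shArf1-2. All Arf1-deficient libraries lay below 6 FPKM and all control libraries above 9 FPKM. Gla fell by 0.92 with shArf1-1 (log2 scale, SE 0.10, adjusted p = 7.91e-10, edgeR) and by 1.06 with shArf1-2 (SE 0.10, adjusted p = 3.37e-11), and its difference between the hairpins was -0.14, with a 95% interval from -0.36 to 0.08.

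Galc encodes galactosylceramidase, which degrades the myelin lipid galactosylceramide and is lost in Krabbe disease. It lies at chr12:98202294-98259459 on the minus strand and shares 400 exonic bases with an antisense gene. Galc had the lowest FPKM of the 8, taken over a listed length of 14879 bases, where the next longest was 4127 for Gm2a. Galc stood at 1.35, 1.56 and 1.42 FPKM in control, at 2.00, 1.74 and 1.96 FPKM with shArf1-1 and at 1.80, 1.503 and 1.77 FPKM with shArf1-2. The shArf1-1 libraries were all above control and the shArf1-2 libraries overlapped both other groups. Galc rose by 0.345 on the log2 scale with shArf1-1 (SE 0.10, adjusted p = 0.0029, edgeR), and with shArf1-2 the value was 0.16 (SE 0.10, adjusted p = 0.165). The difference between the hairpins, -0.19 with a 95% interval from -0.38 to 0.01, did not pass the test (adjusted p = 0.223), so the hairpins were not shown to differ. The shArf1-2 value of Galc passed without shArf1-2 replicate 2 (0.245, adjusted p = 0.0466), and also after scaling by library totals (0.23, adjusted p = 0.046).

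Asah1 and Smpd1 act at the ceramide end of the pathway. Asah1 encodes acid ceramidase, which splits ceramide into sphingosine and a fatty acid, at chr8:41340197-41374773 on the minus strand. Asah1 stood at 61.9, 66.1 and 67.7 FPKM in control, at 40.5, 38.7 and 40.9 FPKM with shArf1-1 and at 33.7, 30.9 and 31.4 FPKM with shArf1-2. The 3 groups did not overlap, and the order was control, shArf1-1, shArf1-2. Asah1 fell by 0.76 with shArf1-1 (log2 scale, SE 0.06, adjusted p = 4.64e-14, edgeR) and by 1.10 with shArf1-2 (SE 0.06, adjusted p = 2.8e-18). It was the only one of the 8 for which the hairpins differed in the edgeR test, at -0.34 for shArf1-2 against shArf1-1 (SE 0.06, 95% interval from -0.46 to -0.22, adjusted p = 7.39e-05), where 14.4% of all tested genes were called. That share is of 1798 genes, which became 1159 without shArf1-1 replicate 1 and 1194 without shArf1-2 replicate 1. Asah1 passed in all 9 fits that left out 1 library, with values from -0.38 to -0.31. Arf1 itself differed the other way, by 0.34 (SE 0.05, adjusted p = 1.16e-05), so the group with less Arf1 RNA had more Asah1 RNA. For this comparison the macrophage list summed to 1.04 to 1.31 FPKM with shArf1-1 and to 1.37 to 1.60 FPKM with shArf1-2.

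Smpd1 encodes acid sphingomyelinase, which turns sphingomyelin into ceramide, at chr7:105554360-105558389 on the plus strand. Smpd1 stood at 15.7, 12.3 and 13.7 FPKM in control, at 12.7, 14.2 and 13.1 FPKM with shArf1-1 and at 13.1, 11.6 and 12.4 FPKM with shArf1-2. The 3 groups overlapped, and control replicate 1 was the highest of the 9. The log2 fold change was -0.11 with shArf1-1 (95% interval from -0.29 to 0.06, adjusted p = 0.249, edgeR) and -0.24 with shArf1-2 (SE 0.09, adjusted p = 0.0171). The call with shArf1-2 was lost without shlucif replicate 1 (-0.13, adjusted p = 0.2) and without shArf1-2 replicate 2 (-0.18, adjusted p = 0.101). It was also lost with limma on log2(FPKM + 1), where the value was -0.15 (adjusted p = 0.124), and after scaling by library totals (adjusted p = 0.0924).

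Per kilobase of gene, the order of the 8 genes in control was Psap, Asah1, Hexa, Glb1, Gm2a, Smpd1, Gla and Galc, with means that ran from 525 FPKM for Psap over 65.2 for Asah1, 63.4 for Hexa, 30.5 for Glb1, 22.5 for Gm2a and 13.9 for Smpd1 to 1.44 FPKM for Galc. Asah1 and Hexa overlapped there, and no other neighbours did. In the Arf1-deficient groups Smpd1 stood next to Gm2a, at 13.3 against 12.3 FPKM with shArf1-1 and 12.4 against 12.3 FPKM with shArf1-2, and these overlapped. With shArf1-2, Hexa (41.0 FPKM) stood above Asah1 (32.0 FPKM) without overlap. Psap took 71.7% of the summed FPKM in control, 73.2% ± 1.44 (SD, n = 3) with shArf1-1 and 73.8% ± 0.520 with shArf1-2. The shArf1-2 libraries (73.4 to 74.4%) lay above control (71.1 to 72.3%), and those of shArf1-1 (71.9 to 74.7%) overlapped both.

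The promoters of the 8 genes are of interest because many lysosomal genes are bound by the MiT/TFE factors at a motif around CACGTG. RefSeq windows of GRCm38.p6 from 250 bases before to 50 bases after a gene's start were found for 7 of the 8 genes, all but Asah1. CACGTG reads alike on both strands and was present for 2 of the 7, Glb1 and Gla, against 8.09% of the 27025 genes with a window. The 2 windows with a match are printed on the strand of the gene, with CACGTG in capitals. In Glb1 the match begins 48 bases before the RefSeq start, and in Gla the matches begin 227 and 194 bases before it.
Glb1 chr9:114400828-114401127 (+): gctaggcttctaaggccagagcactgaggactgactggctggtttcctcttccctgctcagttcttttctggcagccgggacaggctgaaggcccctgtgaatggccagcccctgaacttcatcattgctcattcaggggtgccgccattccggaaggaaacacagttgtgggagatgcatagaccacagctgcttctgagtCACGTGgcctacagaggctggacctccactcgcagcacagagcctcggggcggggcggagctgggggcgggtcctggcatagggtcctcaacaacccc
Gla chrX:134600956-134601255 (-): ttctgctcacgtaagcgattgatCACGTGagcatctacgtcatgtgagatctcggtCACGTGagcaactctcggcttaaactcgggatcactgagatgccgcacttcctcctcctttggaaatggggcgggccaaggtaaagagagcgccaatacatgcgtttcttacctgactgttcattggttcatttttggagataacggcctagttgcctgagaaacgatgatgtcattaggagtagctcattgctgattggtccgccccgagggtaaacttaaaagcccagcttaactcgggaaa
Gla and Glb1 were the genes with one of the larger and with the smallest decrease among the 6 lower with both hairpins. The Gm2a window ends before the gene start given above, so it does not cover that start. A match is a string of letters and does not show binding. Of the factors, Tfeb fell by 1.56 with shArf1-1 and by 1.07 with shArf1-2 on the log2 scale (adjusted p = 6.22e-17 and 4.82e-13, edgeR), and the hairpins differed by 0.49 (adjusted p = 0.000486). Mitf fell by 1.74 and 1.38, from 1.18 FPKM in control. Tfe3, at 9.06 FPKM in control, had values of -0.02 and 0.03 (adjusted p = 0.819 and 0.71). Tfec was not tested, at 0.03 FPKM in control and 0 in the Arf1-deficient libraries. Mitf, Tfec and Tfeb are also expressed in macrophages, and the macrophage markers moved with these values as given above.

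The other hydrolases and helpers of lysosomal sphingolipid breakdown were mostly lower too. The table held 9 such genes, of which 8 were tested; 7 fell and 1 rose with shArf1-1, and 6 fell with shArf1-2. The share called lower among all tested genes was 34.4% with shArf1-1 and 32.6% with shArf1-2. The median change of this list was -1.03 and -0.93 on the log2 scale. Neu1, the lysosomal sialidase, fell by 1.03 and by 1.10 on the log2 scale, from 14.1 ± 0.407 FPKM in control to 7.16 ± 0.433 and 6.89 ± 0.272 FPKM (SD, n = 3), and Ctsa, the protective protein that holds Neu1 and the Glb1 product in a complex, fell by 1.03 and by 0.94 (adjusted p = 7.24e-18 and 8.01e-17, edgeR). Arsa, arylsulfatase A, which uses saposin B on sulfatide, fell by 1.14 and by 0.85. The exceptions were Neu3, a sialidase mainly of the plasma membrane that fell with shArf1-1 (-0.76, adjusted p = 0.0161) and was not called with shArf1-2 (-0.45, adjusted p = 0.141), and Sumf1, the sulfatase-activating enzyme of the endoplasmic reticulum, which rose with shArf1-1 (0.295, adjusted p = 0.0134) and had a value of -0.02 with shArf1-2 (adjusted p = 0.864). Neu4 had no count in any library. Ctsa and other lysosomal hydrolases are also made by macrophages, and the macrophage list moved the same way in the same libraries, from 215 to 258 FPKM in control to 1.04 to 1.60 FPKM. Its part in these decreases was not tested.

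**Figure D3:**
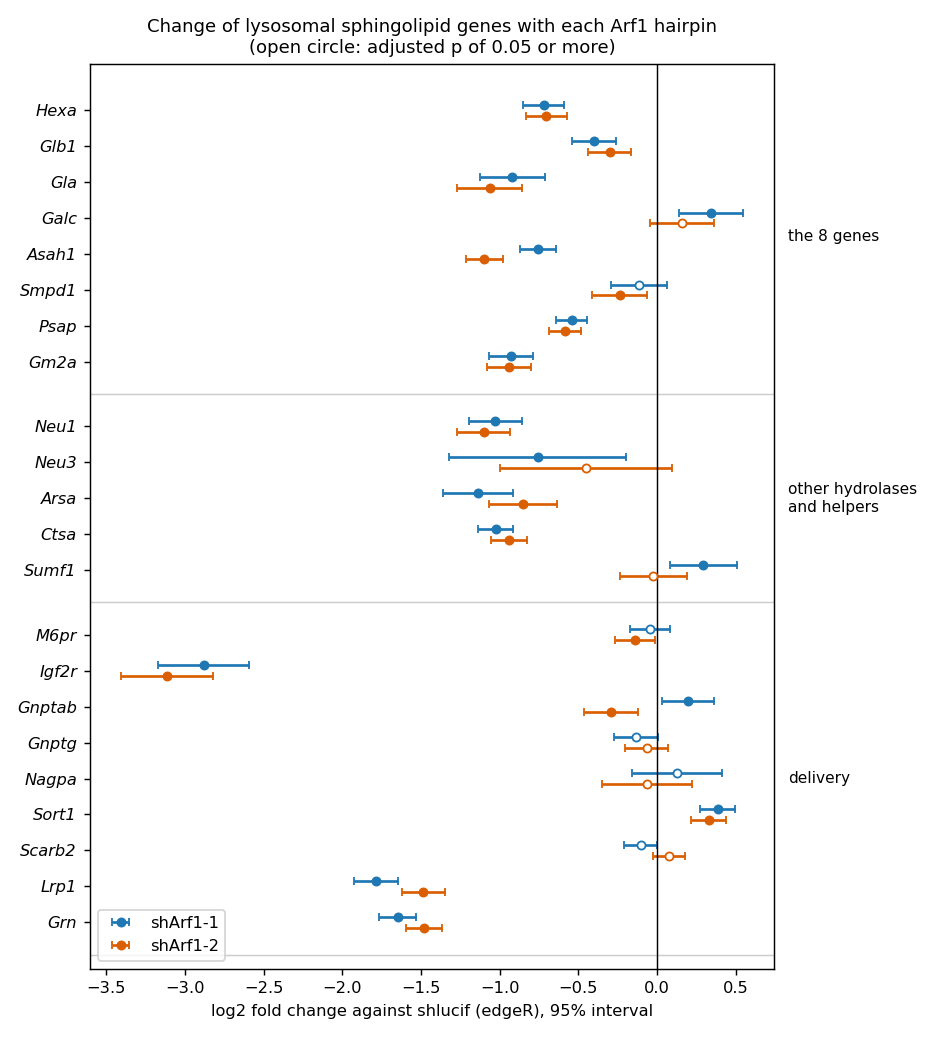
Log2 fold change against shlucif with its 95% interval (edgeR) for the 8 genes, for 5 other tested hydrolases and helpers and for 9 genes of delivery to the lysosome, with shArf1-1 and shArf1-2 side by side. Filled circles passed an adjusted p of 0.05; among the 8 genes the values run from -1.10 (Asah1, shArf1-2) to 0.345 (Galc, shArf1-1), and Igf2r lies furthest to the left at -2.88 and -3.12.

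Because several of these proteins work in complexes, the ratio of partner genes within a library was taken, which does not depend on how libraries are scaled. The ratios were chosen after the values were seen and carry no test. Glb1 over Ctsa went from 0.634 ± 0.0228 in control to 0.978 ± 0.0475 and 0.987 ± 0.0345 with the 2 Arf1 hairpins (SD, n = 3), without overlap between control and the others. Neu1 over Ctsa was 0.292 ± 0.0106 in control, 0.292 ± 0.0199 with shArf1-1 and 0.261 ± 0.0142 with shArf1-2, whose libraries (0.248 to 0.276) lay below those of control (0.286 to 0.305). Gm2a over Hexa was 0.354 ± 0.00829 in control, 0.310 ± 0.0420 with shArf1-1 and 0.300 ± 0.0154 with shArf1-2, where control (0.346 to 0.362) overlapped shArf1-1 (0.280 to 0.358) and lay above shArf1-2 (0.284 to 0.314). On these ratios Glb1 fell less than Ctsa, and with shArf1-2 Gm2a fell more than Hexa.

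**Figure D4:**
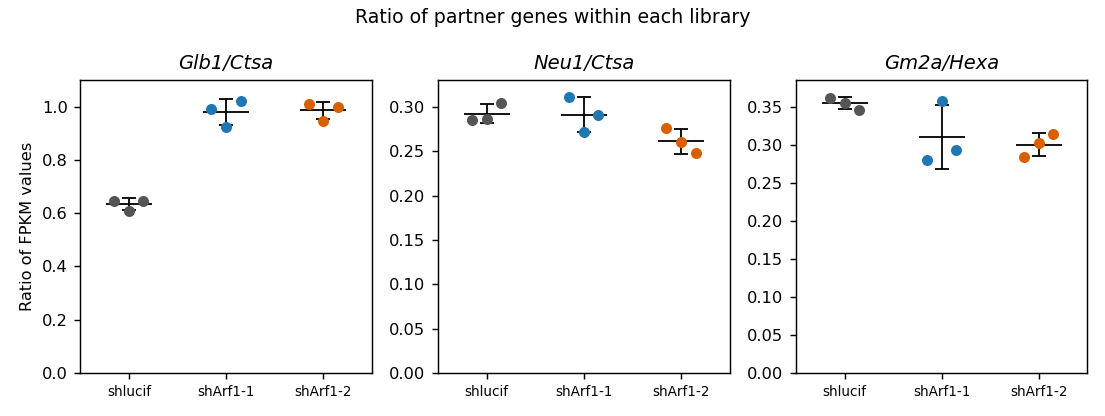
Ratio of FPKM values of partner genes within each library, with the mean and SD of the 3 libraries of a group in black and axes starting at 0. Glb1/Ctsa is higher in all 6 Arf1-deficient libraries (means 0.978 and 0.987) than in shlucif (0.634), Neu1/Ctsa averages 0.292 in shlucif and with shArf1-1, and Gm2a/Hexa overlaps between shlucif and shArf1-1 and is lower in all 3 shArf1-2 libraries (0.284 to 0.314) than in shlucif (0.346 to 0.362).

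Most soluble hydrolases travel to the lysosome on mannose 6-phosphate receptors, and prosaposin can use sortilin or, bound to progranulin, other routes. Of 9 delivery genes, 3 fell and 2 rose with shArf1-1, and 5 fell and 1 rose with shArf1-2. Among all tested genes 34.4% were called lower and 33.1% higher with shArf1-1, and 32.6% and 30.9% with shArf1-2. The lower count with shArf1-1 was thus near the background share. Igf2r, the cation-independent receptor, fell by 2.88 and by 3.12 (adjusted p = 9.25e-18 and 1.87e-18, edgeR), from 4.30 FPKM to 0.61 and 0.52 FPKM. M6pr, the cation-dependent receptor, stood at 36.0, 36.3 and 34.4 FPKM in the 3 groups, and its change was -0.05 under shArf1-1 (adjusted p = 0.536) and -0.14 under shArf1-2 (adjusted p = 0.0482), a call lost after scaling by library totals (-0.07, adjusted p = 0.32). Grn, which encodes progranulin, fell by 1.65 and by 1.48 from 126 FPKM in control, and Lrp1, an endocytic receptor, fell by 1.78 and by 1.48 from 21.2 FPKM. Sort1, sortilin, rose by 0.385 and 0.33 (adjusted p = 2.14e-07 and 3.99e-06). Gnptab, the catalytic subunit of the enzyme that makes the mannose 6-phosphate tag, rose by 0.20 with shArf1-1 (adjusted p = 0.0345, lost in DESeq2 at 0.0642) and fell by 0.29 with shArf1-2 (adjusted p = 0.00297), with a difference between the hairpins of -0.49 (adjusted p = 8.17e-05). Gnptg (-0.13 and -0.07), Nagpa (0.13 and -0.06) and Scarb2, a lysosomal membrane protein (-0.10 and 0.08), were not called against control. With upper quartile scaling Gnptg (-0.152, adjusted p = 0.0446) and Scarb2 (-0.121, adjusted p = 0.031) passed for shArf1-1. Scarb2 also passed for shArf1-1 in DESeq2 (-0.115, adjusted p = 0.0481) and for shArf1-2 after scaling by library totals (0.148, adjusted p = 0.00916). Igf2r, Grn and Lrp1 moved with the macrophage list, whose part in their decrease was not tested, and Grn and Lrp1 are known to be abundant in macrophages.

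In the wider lysosome and sphingolipid lists the counts were as follows. For all tested genes the shares were 34.4% lower and 33.1% higher with shArf1-1, and 32.6% and 30.9% with shArf1-2. Of 10 genes of the lysosomal membrane and lipid egress, 8 fell with each hairpin and none rose, and Npc2, which carries cholesterol out of the lysosome, fell the most, by 1.24 and by 1.19. Of 12 tested genes of sphingolipid breakdown outside the lysosome, 4 rose and 4 fell with shArf1-1, and 5 rose and 3 fell with shArf1-2, with medians of 0.185 and 0.23. Of 19 tested genes of sphingolipid synthesis, 5 rose and 9 fell with shArf1-1, and 4 rose and 8 fell with shArf1-2, with medians of -0.11 and -0.15. B4galnt1, the synthase that makes GM2, was the gene of that list to fall by at least 1 on the log2 scale with both hairpins, by 2.20 and by 1.499 from 3.01 FPKM in control, and the hairpins differed by 0.70 (adjusted p = 0.0389, edgeR). In the pathway column of the deposited table all 8 genes carried the term Lysosome, whose 113 tested genes held 73 lower and 18 higher with shArf1-1 and 73 lower and 16 higher with shArf1-2. Other glycan degradation, which holds Hexa and Glb1, had 16 tested genes, of which 13 were lower and 1 higher with shArf1-1 and 12 lower and 1 higher with shArf1-2. Sphingolipid metabolism, with 6 of the 8 genes, had 39 tested genes, of which 20 were lower and 10 higher with shArf1-1 and 19 lower and 7 higher with shArf1-2. Sphingolipid metabolism was thus nearer to the background shares than the other terms, and no term was tested as a set.

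The profile of each gene over the 9 libraries was compared with 9267 other genes with a mean of at least 10 CPM (counts normalised to library size) by Pearson's r of log2 CPM. These points fall into control and Arf1-deficient libraries, so that r mostly ranks how closely a gene follows that split, and it is given as a description. The nearest gene to Psap was Ctsz (r = 0.998), a lysosomal cathepsin, and the nearest to Asah1 was Scpep1 (r = 0.997). For Gm2a it was Pik3cd (r = 0.997), for Hexa Ifi27 (r = 0.994), for Gla Nt5dc3 (r = 0.993) and for Glb1 Emp3 (r = 0.978). For Psap and Gm2a the second gene had the same rounded r, 0.998 and 0.997, so the nearest place was shared there. Galc was nearest to Id2 (r = 0.959) and Smpd1 to AI837181 (r = 0.943). Among the 8 genes, Gm2a and Psap were nearest to each other (r = 0.994), Hexa and Gla were each nearest to Gm2a (r = 0.965 and 0.969), Glb1 to Hexa (r = 0.917) and Asah1 to Gla (r = 0.957). Smpd1 was nearest to Psap with r = 0.653, and Galc had a negative r with each of the other 7, from -0.71 with Gm2a to -0.31 with Smpd1.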

How the data were processed

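RNA was sequenced from N2a cells with the hairpins shlucif, shArf1-1 and shArf1-2, with 3 libraries per group. The authors deposited 1 table with a read count and an FPKM value per gene and library. Its columns headed shArf2 were read as shArf1-2, the only other hairpin in the labels. The deposited counts are whole reads without normalization. The FPKM values deposited by the authors equal count over listed gene length and library total within 0.1%. The labels give mm10 as the build. The aligner, counting tool, strand setting and filters are not given in the sources used here. The table's coordinates did not match GRCm38 for any of the 8 genes, so positions are those of GENCODE vM21 by identifier. Without a known strand setting, reads of overlapping antisense genes cannot be told apart. The table's shArf2 columns were taken as shArf1-2, and 8 lines without a gene identifier were left out.

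Counts were fitted in R 4.3.3 with edgeR 4.0.16 (filterByExpr, TMM, glmQLFit with robust estimation, glmQLFTest) over the 9 libraries as 3 groups, with a Benjamini-Hochberg adjusted p under 0.05 over 12448 genes. Depth was 11182479 to 15594615 counts per library, and the 8 genes had at least 196 counts in every library (the lowest was Gla). Alternatives were DESeq2 1.42.0, limma 3.58.1 on log2(FPKM + 1) and log2(FPKM + 0.1), other scalings and filters, a 1.5-fold minimum, both hairpins pooled, only the libraries compared, a replicate block and leaving out each library. The comparisons with control were also run on simulated counts, in which few genes changed and all genes had the same spread. Many more genes were called here, so that run does not check the scaling or the spread of these data. No pair of libraries within a group agreed within sampling noise (chi-square per degree of freedom 2.96 to 8.17). The members and gene lists were chosen with earlier results of these data known. Outside the 8 genes, Arf1 and the lists of other hydrolases and of delivery, genes were named where they passed with both hairpins in 1 direction with a log2 fold change of at least 1, at most 4 per list, or as the nearest profile. A few genes picked out by these rules are left unnamed; counts and medians include them. Marker genes named beside these, Mrc1, Tfe3 and Tfec were chosen after their values were seen.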

Additional observations from a re-analysis of the deposited data

Results flagged for a closer look

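The effects of the 2 hairpins against the shared control differed, by the direct edgeR quasi-likelihood contrast of shArf1-2 with shArf1-1, for 1 of the 8 genes, Asah1, at -0.341 on the log2 scale (adjusted p = 7.39e-05), with 40.5, 38.7 and 40.9 FPKM with shArf1-1 and 33.7, 30.9 and 31.4 FPKM with shArf1-2. The contrast called 14.4% of all tested genes, so 1 of the 8 is near that share. Arf1 differed by 0.342 (adjusted p = 1.16e-05).

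Among the other hydrolases and helpers, the hairpins differed for Sumf1 by -0.318 (adjusted p = 0.0367). Among the delivery genes, they differed for Gnptab by -0.49 (adjusted p = 8.17e-05), for Scarb2 by 0.179 (adjusted p = 0.0161), for Lrp1 by 0.301 (adjusted p = 0.00302) and for Grn by 0.167 (adjusted p = 0.0488, and 0.0682 in DESeq2). Tfeb differed by 0.486 (adjusted p = 0.000486) and B4galnt1 by 0.70 (adjusted p = 0.0389). Of the neuroblast markers, Dbh differed by -0.776 (adjusted p = 0.00674), Gata3 by -0.39 (adjusted p = 0.0329, and 0.0516 in DESeq2) and Chgb by -0.472 (adjusted p = 9.01e-09). Of the fibroblast markers, Col1a1 differed by 1.411 (adjusted p = 0.00229) and Pdgfrb by 0.911 (adjusted p = 8.81e-06). Groups of 3 libraries were too small for a check of single outlying samples.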

How the results depend on the processing

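The decreases of Hexa, Glb1, Gla, Asah1, Psap and Gm2a against control kept their direction under every alternative run, and lost the threshold only where a change had to exceed 1.5-fold. That setting left 2592 genes and 4 of the 8 for shArf1-1, 2072 genes and 3 of the 8 for shArf1-2, and 4 genes and 0 of the 8 between the hairpins. Leaving out 1 library gave 7894 to 8511 genes for shArf1-1, 7315 to 8200 for shArf1-2 and 1159 to 1977 between the hairpins, the lowest without shArf1-1 replicate 1 (1159) and shArf1-2 replicate 1 (1194). Smpd1 and Galc with shArf1-2 changed sides of the threshold as given with their values; with both hairpins pooled Smpd1 was at -0.17 (adjusted p = 0.0853) and Galc at 0.25 (adjusted p = 0.0326). Between the hairpins, the sign of values near 0 reversed: Gm2a to 0.001 with library totals and with upper quartile scaling, and over the fits without 1 library Gm2a ran from -0.042 to 0.021 and Hexa from -0.045 to 0.076, none past the threshold. Mean FPKM moved by more than its SD once, for Psap with shArf1-2 (359.9 with TMM library sizes). Causes were not tested.

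Replicate numbers in the labels did not pair the samples: over 9 same-numbered pairs of libraries, deviations from the group means correlated at -0.082 to 0.094, and shlucif replicate 1 reached 0.193 with shArf1-1 replicate 2. With a replicate block 8431, 7939 and 1809 genes were called in the shArf1-1, shArf1-2 and between-hairpin comparisons, with 7, 7 and 1 of the 8 genes. The block changed no call among the 8 genes. Of the 8 genes Gla had the fewest counts, 196 to 461 per library, and Galc had 276 to 454.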
